A study of Mus musculus with 6 samples.

Results

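Xcr1 dendritic cells, the type 1 conventional dendritic cells (cDC1), made up 128 of the 6364 cells kept from 2 droplet libraries of single-cell transcriptomes. They were chosen by their raw counts of unique molecular identifiers (UMIs, each standing for 1 captured transcript). A member had at least 1 UMI of Xcr1 and none of Siglech, Cd3e, Cd3d or Ncr1, and did not hold both Ccr7 and Fscn1. These 7 genes chose the cells, so their levels are a description and no finding. The Empty vector library gave 46 of its 3978 cells (1.16%, Clopper-Pearson 95% interval 0.848 to 1.54) and the Bmal1 WT library gave 82 of its 2386 cells (3.44%, 2.74 to 4.25). All intervals below cover counting error only.

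Type 1 conventional dendritic cells are the antigen-presenting cells that specialise in cross-presentation, in which material taken up from dying cells is shown on MHC class I molecules to CD8 T cells. They depend on the transcription factors Irf8 and Batf3. Xcr1 is the receptor for the chemokine Xcl1, which NK cells and CD8 T cells release, and Clec9a is a receptor for actin exposed on dead cells. In tumours these cells are known for priming T cells against tumour antigens and for producing interleukin 12.

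YUMM2.1, which the labels name as the source, is a mouse melanoma line, and by the study's methods the Empty vector and Bmal1 WT lines were made from it by lentiviral transduction and sorting for GFP. Both groups therefore share the YUMM2.1 background, and Bmal1 WT differs by the added Bmal1 (the gene Arntl), a transcription factor of the circadian clock. Dendritic cells are not cells of this line, and the sources do not say that the Xcr1 cells carried the vector. The labels give neither tissue, host, age nor treatment, and do not say whether the hashtags marked separate animals, so the p-values measure only the spread between hashtags. Hashtags are antibody barcodes put on each replicate before pooling: h1, h7 and h8 for Empty vector, and h3, h5 and h9 for Bmal1 WT. Each group was run in its own droplet channel, and so channel and group cannot be told apart.

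The libraries held 34232927 gene UMIs over 4147 barcodes (Empty vector) and 39561569 over 2785 barcodes (Bmal1 WT). They shared 5 barcodes, none of them an Xcr1 cell. Of the Xcr1 cells, 17, 2 and 15 carried only h1, h7 or h8, and 31, 17 and 24 carried only h3, h5 or h9. The remaining 9 and 4 had no hashtag and 3 and 6 had several, and these entered no replicate. Values of h7 rest on 2 cells with 17637 UMIs together. The median depth was 6599.5 UMIs and 2037.5 genes per Xcr1 cell in Empty vector and 10550.5 UMIs and 2587.5 genes in Bmal1 WT.

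The members ranged widely in how firmly the rule held them. They had 1 to 56 UMIs of Xcr1 (median 4). In Empty vector 11 cells had 1 UMI and 16 had 10 or more, and in Bmal1 WT 21 had 1 and 32 had 10 or more. Of the 6 markers of the label (Xcr1, Clec9a, Tlr3, Naaa, Cyp26b1 and Wdfy4), 107 of 128 cells (83.6%) held at least 4 and 3 cells held Xcr1 alone. Clec9a was seen in 92 of 128 Xcr1 cells (71.9%) and in 6 of 1469 Cd3 cells (0.408%), a class that should lack it (median 4594 and 6471.5 UMIs per cell in the libraries). The rule left out 20 of 66 Empty vector cells and 14 of 96 Bmal1 WT cells with an Xcr1 UMI, and 9 of these were left out for Ccr7 with Fscn1.

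A set of 10 members was marked, by a condition set after the values were seen: at least 3 detected genes of another lineage's marker list, or more than 100000 UMIs. Of these, 5 were in each library, and 7 of them had 1 Xcr1 UMI, while the other 3 had 13, 28 and 32. Those 3 cells held all 6 label markers, at 33652, 39391 and 25152 gene UMIs. In Empty vector the marked cells carried 53.1% of all UMIs of Xcr1 cells, against 8.24% in Bmal1 WT. A pair of Empty vector cells alone carried 43.1%. The first, with no hashtag, had 216213 UMIs, 1 of Xcr1, 174 of Cyp26b1 (a retinoic acid-degrading enzyme) and none of Clec9a, Irf8 or Ptprc, the pan-leukocyte gene that encodes CD45. The second, under h8, had 208412 UMIs, 1 of Xcr1, 260 of S100b, 17 of Sox10 and 111 of Mki67 (a proliferation gene), and none of Clec9a, Irf8 or Ptprc. S100b and Sox10 are genes of neural crest-derived cells such as melanocytes. No other Empty vector member passed 43953 UMIs. The other 118 members (41 Empty vector and 77 Bmal1 WT) are called unmarked below, and results are given with and without the marked cells.

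**Figure D1:**
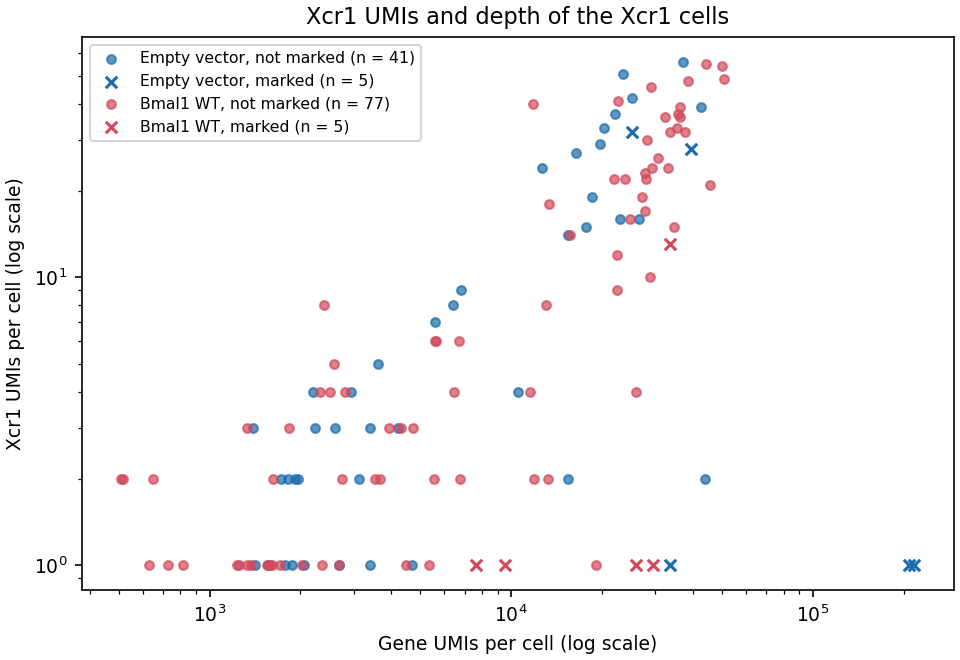
Each point is 1 Xcr1 cell, by its gene UMIs (x axis, log scale) and its Xcr1 UMIs (y axis, log scale), coloured by library, and crosses are the 10 marked cells. The 2 crosses farthest to the right are Empty vector cells with 216213 and 208412 gene UMIs and 1 Xcr1 UMI each.

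Markers of other lineages were low in the unmarked cells, but the marking used these same lists, so this partly restates how the cells were chosen. The rule also set Cd3e and Cd3d of the T cell list and Ncr1 of the NK cell list to 0. Of 7 T cell genes, 0 were detected in the Empty vector members and 2 in the Bmal1 WT members. The summed level of 11 macrophage genes was 95.5 CPM (the UMI count scaled to 1000000 in all) in Empty vector (27.0 to 239 over hashtags, with C1qa, C1qb, C1qc, Fcgr1, Ms4a7 and Mrc1 at 0) and 326 in Bmal1 WT (76.7 to 703, none at 0). Without the marked cells these sums were 113 and 121 CPM, and C1qa, C1qb and C1qc were at 0 in both. The 4 melanoma genes summed to 316 CPM (0 to 646) and 87.7 CPM (2.15 to 45.3 over hashtags), with none at 0, and to 6.50 and 5.92 CPM without the marked cells. The 5 fibroblast genes summed to 53.9 CPM (0 to 51.8, Dcn and Pdgfrb at 0) and 582 CPM (6.45 to 18.6, none at 0), and to 2.17 and 10.99 CPM without them. NK cell, B cell and neutrophil lists summed to at most 10.8 CPM without the marked cells.

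At the edge of the rule, the 25 unmarked cells with 1 Xcr1 UMI were shallow, at a median of 1710 UMIs, against 13303 for the 93 with 2 or more. Their summed level was 173 CPM of Clec9a, 1847 CPM of Naaa and 1342 CPM of Irf8, against 408, 2972 and 2174 CPM. With the marked cells, all 32 cells with 1 UMI had 20.002 CPM of Clec9a and 240 CPM of Naaa. Just outside, 57 cells with a Clec9a UMI but none of Xcr1 had 124 CPM of Clec9a, 646 CPM of Naaa and 14.6 CPM of Tlr3, with 1063 CPM of Lyz2 and 551 CPM of C1qa, both macrophage genes. The rule thus took in shallow cells of lower marker level, and cells with Clec9a alone carried macrophage genes as well.

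Levels in Xcr1 cells were set beside those of 3 other dendritic classes, each built from raw UMIs: mature dendritic cells with Ccr7 and Fscn1 (225 cells), Cd209a or Mgl2 cells, markers of type 2 conventional dendritic cells (289 cells), and Siglech and Tcf4 cells, markers of plasmacytoid dendritic cells (75 cells). Cd3 cells (1469) gave a level outside the dendritic classes. A value is the mean of the 2 libraries' CPM, and a ratio has 5 CPM added to both sides. Since the gate chose the cells, these levels are a description with no test. Marked cells were left out of Xcr1 cells only, and the other classes kept all of their cells.

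Genes of the cDC1 list were higher in Xcr1 cells than in the other dendritic classes. Of 19 genes of the cDC1 list outside the rule, 15 were more than 2-fold above every other dendritic class in the unmarked cells, with a median log2 ratio of 2.01. Among all 2834 genes with at least 50 CPM and 20 UMIs in Xcr1 cells, 95 (3.35%) were, with a median of -0.28. With the marked cells, 11 of 19 and 135 of 3089 genes (4.37%) were. The list was chosen with such markers in mind, so this count restates its choice.

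In the GENCODE M21 annotation (build GRCm38, 1-based), Xcr1 spans 123852315 to 123862029 of chromosome 9, Clec9a 129408862 to 129424763 and Cyp26b1 84571414 to 84593908 of chromosome 6, and Tlr3 45395665 to 45411080 of chromosome 8. Cyp26b1 led the ratios at 51.1, with 824 CPM in Xcr1 cells, 11.2 in mature, 6.35 in Cd209a or Mgl2 cells and 0 in Siglech and Tcf4 cells. Tlr3, the endosomal receptor for double-stranded RNA, had 423 CPM against at most 25.2, and Tlr11, a receptor for microbial profilin, had 50.4 against at most 8.78. Ppt1, a lysosomal palmitoyl thioesterase, had 1201 CPM against at most 81.0. Naaa, a lysosomal amidase that breaks down N-acylethanolamines, had 2963 CPM against 518 in Cd209a or Mgl2 cells. Rab7b, a small GTPase of late endosomes, had 240 CPM against at most 17.3.

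Several leading genes encode surface proteins. Cd36, a scavenger receptor for lipids and apoptotic cells, had 321 CPM against at most 21.0. Ffar4, a receptor for long-chain fatty acids, had 184 CPM against at most 10.6. Cadm1, an adhesion molecule, had 257 CPM against at most 34.3. Clec9a had 432 CPM, 150 in Siglech and Tcf4 cells and 7.09 in Cd209a or Mgl2 cells. Itgae, which encodes the integrin CD103, had 664 CPM, against 316 in Cd209a or Mgl2 cells.

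The 20 genes with the highest ratio in unmarked cells were completed by Gcsam, Snx22, Plcb4, Agpat3, St3gal5, Rtl8a, Plpp1, Rtl8b, F2rl2, Acvrl1 and Mospd1, at ratios of 3.80 to 8.65. Of the 20, 10 were in the cDC1 list. With the marked cells, 4 of the 20 leading genes were in that list, and 6 genes (Cd36, Cyp26b1, Ffar4, Ppt1, Rab7b and Tlr3) led in both. The other leading genes with the marked cells included S100b at 153 CPM, Gsta2 at 61.0, Aldh3a1 at 53.3 and Mgp at 301, and S100b is one of the genes by which the deep h8 cell was described. Without the marked cells S100b was no longer among the leading 20.

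Not every gene of cDC1 identity was highest here. Irf8 had 2180 CPM in Xcr1 cells, 1308 in mature cells, 159 in Cd209a or Mgl2 cells and 2615 in Siglech and Tcf4 cells. Batf3 had 187 CPM against 335 in mature cells, and Id2, a repressor of E proteins needed by these cells, had 1388 against 2442. Wdfy4, which is required for cross-presentation of cell-associated antigen, had 1024 CPM against 492 in Cd209a or Mgl2 cells. Among the 12 genes of antigen uptake and cross-presentation, 4 were more than 2-fold above every other class: Clec9a, Wdfy4, Cd36 and Rab43 (125 CPM against at most 55.6), a GTPase of the cross-presentation route. This is beside 3.35% of all genes, the median log2 ratio of the list was -0.15, and with the marked cells 1 of the 12 was. Clec9a and Wdfy4 are also markers of the label, so their part of the count restates that choice. Cybb, the catalytic subunit of the phagocyte NADPH oxidase, had 7.72 CPM against 467 in Cd209a or Mgl2 cells and 1483 in Siglech and Tcf4 cells.

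**Figure D2:**
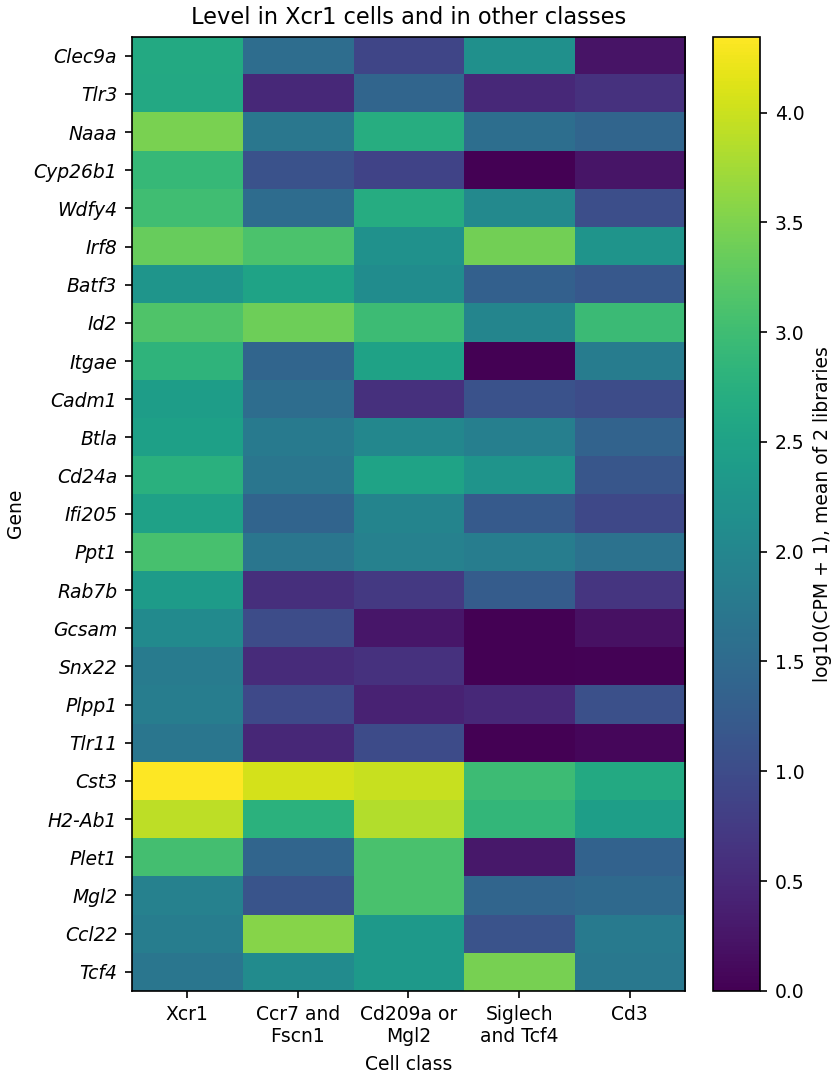
The heat map shows log10 of CPM + 1 for 25 genes (rows) in 5 classes of cells (columns), as the mean of the 2 libraries with marked Xcr1 cells left out. Cyp26b1, Tlr3, Ppt1 and Naaa are brightest in Xcr1 cells, whereas Irf8 is as bright in Siglech and Tcf4 cells and Plet1 in Cd209a or Mgl2 cells.

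The MHC class II genes, which serve presentation to CD4 T cells, lay on both sides of their levels in Cd209a or Mgl2 cells. H2-Ab1 had 8216 CPM, H2-Aa 6868 and Cd74, the invariant chain, 16941.5, against 7124, 6879 and 14980.1 there. Ctss, a protease that cuts the invariant chain, had 330 CPM against 1444, and H2-DMb2, part of a peptide-loading chaperone, had 188 against 475. None of the 11 class II genes measured was more than 2-fold above every other class, and their median log2 ratio to the highest class was 0.14. The MHC class I pathway had a lower median than class II, -0.51 over its 14 genes. Of these 14, 12 reached 50 CPM and 20 UMIs in Xcr1 cells. All of the 2834 genes, with a median of -0.28, reached those levels, so the class I median and theirs cover unlike sets. H2-K1 had 1644 CPM against 3394 in mature cells. Its immunoproteasome subunit Psmb9 had 884 CPM against 454 in mature cells.

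Lists of maturation, costimulation and interferon genes lay lower by median in these cells than in the highest other class. The rule left out Xcr1 cells with both Ccr7 and Fscn1, the genes that chose the mature class. Low levels against mature cells thus partly restate these gates. The median log2 ratio to the highest other class was -4.73 for the mature dendritic list, whose naming genes Ccr7 and Fscn1 the rule used, and -2.78 for costimulatory and checkpoint ligands. Of the 14 ligands, 3 reached 50 CPM and 20 UMIs in Xcr1 cells. Cd80 had 27.2 CPM against 392 in mature cells, Cd40 13.1 against 214, and Cd274, which encodes PD-L1, 35.5 against 491. The 24 interferon-stimulated genes measured had a median of -1.90, with Isg15 at 30.5 CPM against 185 in Cd209a or Mgl2 cells. Of the 24, 7 reached 50 CPM and 20 UMIs in Xcr1 cells. Of the 2834 genes with at least 50 CPM and 20 UMIs in Xcr1 cells, 18 (0.635%) were more than 2-fold below every other class. That filter removed genes nearly absent from Xcr1 cells, so this share does not measure how many genes are low there.

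Among secreted factors, Il12b, a subunit of interleukin 12, had 61.6 CPM against 625 in mature cells. It was seen in 12 of 128 Xcr1 cells (9.38%) and 11 of 1469 Cd3 cells (0.749%). Cxcl9, a chemokine for activated T cells, had 167 CPM against 295 in Cd209a or Mgl2 cells, and Ccl5 had 10.4 CPM against 4352 in mature cells. Cxcr3, the receptor for Cxcl9, had 30.9 CPM against at most 23.2 in the other dendritic classes. Il12b, Ccl5 and the costimulatory ligands above were therefore each highest in the mature class. That class was chosen by Ccr7 and Fscn1, so the comparison is not independent of the gates.

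The 10 genes with the lowest ratio in unmarked cells were Fn1, Tmem176a, S100a4, Tmem176b, Osm, S100a10, Sdc4, Lamp1, Lrp1 and Vegfa. Fn1, which encodes the matrix protein fibronectin, had 7.06 CPM against at least 321 in the other dendritic classes. Tmem176a and Tmem176b had 0.423 and 1.51 CPM against at least 105 and 89.3. S100a4 had 7.66 CPM against at least 219. Of these 10 genes, 2 were also among the lowest 10 with the marked cells.

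Genes of type 2 dendritic cells were split. Cd209a was at 0 CPM and Sirpa, an inhibitory receptor, at 4.10 against 199 in Cd209a or Mgl2 cells. Plet1, a surface protein, had 1103 CPM against 1259, and 73.4% of the members held it. Mgl2, a lectin, had 80.0 CPM against 1235, and was seen in 45 of 128 Xcr1 cells (35.2%) and in 1.43% of Cd3 cells. The class of Cd209a or Mgl2 cells was chosen by these genes, so its levels of both follow from the gate. The 42 unmarked cells with a Mgl2 UMI had a median of 22449.5 UMIs and the 76 without one 2882.5, so this split moved with depth. Per UMI, Clec9a was at 433 CPM with and 352 CPM without Mgl2, and Plet1 at 1333 and 883 CPM. Ccl17, a chemokine for Ccr4, was at 889 and 111 CPM. By hashtag Ccl17 was 44.8, 227 and 2652 CPM in Empty vector and 114, 419 and 230 CPM in Bmal1 WT, so that h8 stood above all the others.

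Cyp26b1, the leading gene, also varied widely between hashtags. In unmarked cells it was 1455, 170 and 802 CPM in Empty vector h1, h7 and h8, and 578, 64.9 and 1041 CPM in Bmal1 WT h3, h5 and h9. The lowest and highest hashtags of each group overlapped those of the other. It was seen in 2 of 16 unmarked h5 cells and in 19 of 23 h9 cells, of the same group and channel. Naaa stayed between 2421 and 3522 CPM over the 6 hashtags and Wdfy4 between 946 and 1132 CPM.

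Cell cycle genes were detected together in part of the Xcr1 cells. With at least 2 of 9 cell cycle genes detected, 14 of 46 Empty vector cells (30.4%, Clopper-Pearson 17.7 to 45.8) and 24 of 82 Bmal1 WT cells (29.3%, 19.7 to 40.4) were counted. Depth enters this count, so each cell was also thinned to 2000 UMIs, leaving out 9 and 17 shallower Xcr1 cells. After thinning, 18.9% (7 of 37) and 13 of 65 Xcr1 cells counted, against 0% and 0% of mature cells, 3.52% and 8.96% of Cd209a or Mgl2 cells, 0% and 0% of Siglech and Tcf4 cells, and 7.26% and 15.5% of Cd3 cells (Empty vector first in each pair). The thinned counts included the marked cells and were not repeated without them. Without the marked cells the unthinned counts were 10 of 41 (24.4%) and 24 of 77 (31.2%). Of the 20 genes of the cell cycle list, 10 were more than 2-fold above every other dendritic class in unmarked cells, among them Stmn1, a microtubule regulator (213 CPM against at most 69.7), and Top2a, a topoisomerase (161 against at most 54.0). This is beside 3.35% of all genes, and with the marked cells 13 of 20 were. Cyp26b1 was 383 CPM in the 34 unmarked cells with at least 2 of these genes and 988 CPM in the 84 others, whereas Xcr1 was 916 and 946 CPM.

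The share of Xcr1 cells was compared between the groups over hashtags (n = 3 in each group). It was known from earlier results of these data to be higher in Bmal1 WT, so the comparison is no independent test. Among cells with a Ptprc UMI, Xcr1 cells were 1.23% (16 of 1298), 0.309% (2 of 648) and 1.15% (12 of 1045) in h1, h7 and h8, and 3.20% (22 of 688), 3.12% (11 of 353) and 7.84% (20 of 255) in h3, h5 and h9. A Ptprc UMI was seen in 93 of the 128 Xcr1 cells (72.7%), and this share leaves out the others. All 3 Bmal1 WT hashtags lay above all 3 Empty vector hashtags. The means were 0.897% ± 0.511 and 4.72% ± 2.71 (SD, n = 3), with a two-sided exact permutation p of 0.10, which is the smallest that 3 against 3 can give, and 0.30 after Benjamini-Hochberg adjustment over 6 comparisons. The difference therefore could not pass 0.05 in this design.

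Among the cells of the 4 dendritic classes, Xcr1 cells were 11.3%, 1.94% and 11.6% in h1, h7 and h8 and 26.5%, 24.6% and 47.1% in h3, h5 and h9. The hashtags again did not overlap (8.28% ± 5.49 against 32.7% ± 12.4, SD, n = 3, exact permutation p = 0.10, adjusted 0.30). Over whole libraries the shares were 10.2% (46 of 451, Clopper-Pearson 7.56 to 13.4) and 30.8% (82 of 266, 25.3 to 36.8). Without the marked cells they were 10.1%, 1.94% and 10.9% against 25.9%, 23.5% and 46.0%, and thinned to 2000 UMIs 10.9%, 2.13% and 11.4% against 22.1%, 17.0% and 45.7%. The h7 share was the lowest of the 6 each time and the h9 share the highest.

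The other dendritic classes did not separate the groups. As shares of Ptprc cells, mature cells were 3.20% and 4.31% (exact permutation p = 0.60), Cd209a or Mgl2 cells 6.34% and 4.77% (exact permutation p = 0.30), and Siglech and Tcf4 cells 1.82% and 1.07% (exact permutation p = 0.20), Empty vector first, and in each the hashtags overlapped. Whether these differences themselves differ from that of Xcr1 cells was not tested. The median depth of Xcr1 cells was 14604 ± 5440 UMIs in Empty vector and 12282 ± 8807 in Bmal1 WT (SD, n = 3, exact permutation p = 0.80), a difference of -2322 that turned to 2174 without the marked cells. A share does not tell more Xcr1 cells from fewer other cells in the denominator.

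**Figure D3:**
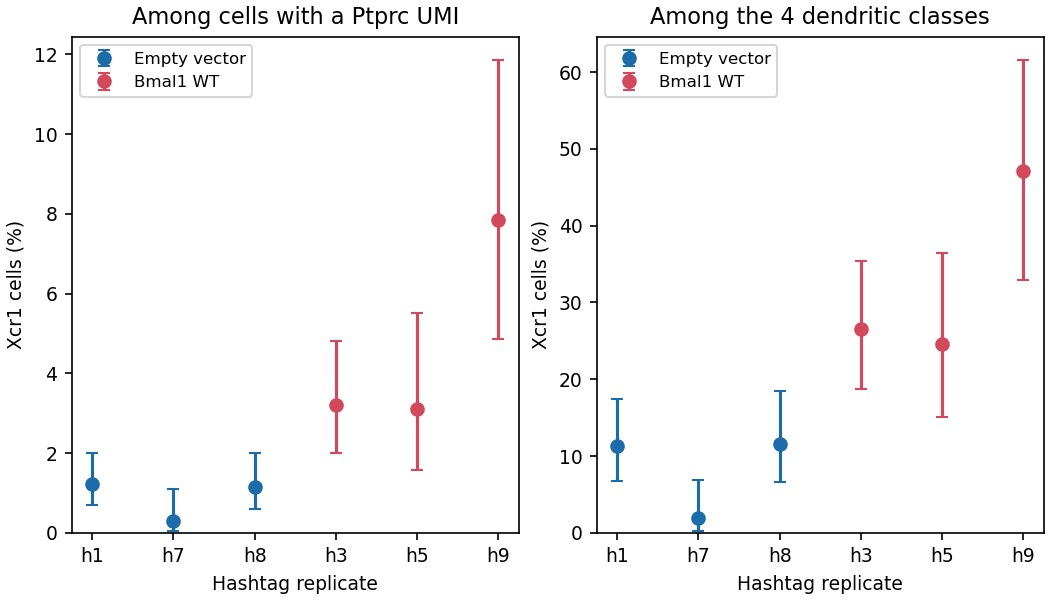
The share of Xcr1 cells (y axis, percent) is shown for each hashtag (x axis) among Ptprc cells (left) and among the 4 dendritic classes (right), with Clopper-Pearson 95% bars. The 3 Bmal1 WT hashtags lie above the 3 Empty vector hashtags in both panels, from 3.12% upward on the left and from 24.6% upward on the right.

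Genes were then compared between the groups within Xcr1 cells, with UMIs summed per hashtag. No gene passed an adjusted p of 0.05 in edgeR's quasi-likelihood test: 0 of 2857 genes (0%), with a smallest adjusted p of 0.674. At an unadjusted p under 0.05 there were 156 genes (5.46%), 30 higher and 126 lower in Bmal1 WT, and DESeq2 called 0 with 65 at an unadjusted p under 0.05. Without the marked cells edgeR again called 0 of 2304 genes (0%, smallest adjusted p 0.974), and 87 (3.78%) had an unadjusted p under 0.05, 49 higher and 38 lower. DESeq2 called 1 gene there, Hist1h1b (adjusted p = 0.0213).

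The 10 genes with the smallest p over all members were Anln, Cpe, Cd63, Csn3, Col18a1, Prune2, Nt5c, Sdc4, Apod and Serpinh1. Of these, 9 were lower in Bmal1 WT, and in 9 more than 50% of the UMIs came from 1 cell. Cpe, carboxypeptidase E, had 0, 0 and 700 CPM in h1, h7 and h8 and 2.33, 0 and 0 CPM in h3, h5 and h9, with 99.7% of its UMIs in 1 cell. The remaining gene was Nt5c, a nucleotidase, at 24.7, 0 and 45.0 CPM in Empty vector and 107, 136 and 94.7 CPM in Bmal1 WT, where the groups did not overlap. Its log2 fold change (Bmal1 WT over Empty vector) was 1.68 ± 0.42 (SE, adjusted p = 0.674, edgeR), and 1.39 ± 0.46 without the marked cells.

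Without the marked cells the 10 smallest p belonged to other genes, and 0 were shared between the lists. They were Smc2, Hist1h1b, Hsp90aa1, B4galnt1, Hist1h2ae, Scd2, Ffar4, Hist1h2ap, Cbx5 and Cxcl9, each at an adjusted p of 0.974 (edgeR). Of these, 7 were higher in Bmal1 WT. In 9 of them the hashtags of the groups did not overlap, beside 273 of all 2304 genes (11.8%), and these genes were picked for their small p.

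Chromatin and histone genes were among them. Smc2, a condensin subunit, was 33.6, 56.7 and 12.7 CPM in Empty vector and 78.2, 166 and 109 CPM in Bmal1 WT (log2 fold change 2.26 ± 0.53, SE). Hist1h1b, a linker histone, was 11.2, 0 and 0 CPM against 54.5, 332 and 107 CPM (4.94 ± 1.18), with 36.8% of its UMIs in 1 cell. Over all members its log2 fold change was 2.77 ± 0.99. Mki67 was 61.6, 0 and 0 CPM against 73.4, 281 and 130 CPM (2.57 ± 0.84, adjusted p = 0.974, edgeR), and with the marked cells, where h8 had 250 CPM, its log2 fold change was 0.0018 ± 0.79. For Smc2 the change with the marked cells was -0.57 ± 0.47. The 12 tested cell cycle genes had a median log2 fold change of 0.74, with 0 called and 2 higher at an unadjusted p under 0.05. Over all 2304 genes the median was -0.03, and 87 (3.78%) had such a p, 49 higher and 38 lower. With the marked cells the median of 18 tested cell cycle genes was -0.03.

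Hsp90aa1, a stress-induced chaperone, was 230, 227 and 221 CPM against 587, 581 and 332 CPM (1.15 ± 0.29). It was 0.016 ± 0.40 with the marked cells. The 11 heat shock genes had a median of 0.38, with 2 higher at an unadjusted p under 0.05 and 0 called, beside 87 of all 2304 genes (3.78%) at that p. Of 76 ribosomal protein genes, 11 were higher at an unadjusted p under 0.05, 0 were called, 20 had hashtags that did not overlap, and the median was 0.26. This is beside 3.78% of all genes at that unadjusted p and 11.8% without overlap. With the marked cells 3 of 78 were higher at an unadjusted p under 0.05.

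Lower in Bmal1 WT among these 10 were B4galnt1, Scd2 and Ffar4. B4galnt1, a ganglioside synthase, was 129, 227 and 165 CPM against 71.0, 57.7 and 83.5 CPM (-1.10 ± 0.30). Scd2, a fatty acid desaturase, was 95.2, 227 and 369 CPM against 87.6, 50.5 and 88.1 CPM (-1.62 ± 0.46). Ffar4 was 257, 340 and 229 CPM against 152, 130 and 118 CPM (-0.93 ± 0.27). In unmarked cells all 3 Empty vector hashtags lay above all 3 Bmal1 WT hashtags in each of these genes. Over all members the groups overlapped in each, and the changes were -0.53 ± 0.37 for B4galnt1, -1.93 ± 0.59 for Scd2 and -0.60 ± 0.38 for Ffar4.

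Cxcl9 was 50.4, 0 and 25.5 CPM in Empty vector and 377, 46.9 and 158 CPM in Bmal1 WT (2.50 ± 0.78). The groups overlapped, 39.2% of its UMIs came from 1 cell, and it was seen in 3, 0 and 3 unmarked cells of h1, h7 and h8 and in 9, 5 and 2 cells of h3, h5 and h9.

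**Figure D4:**
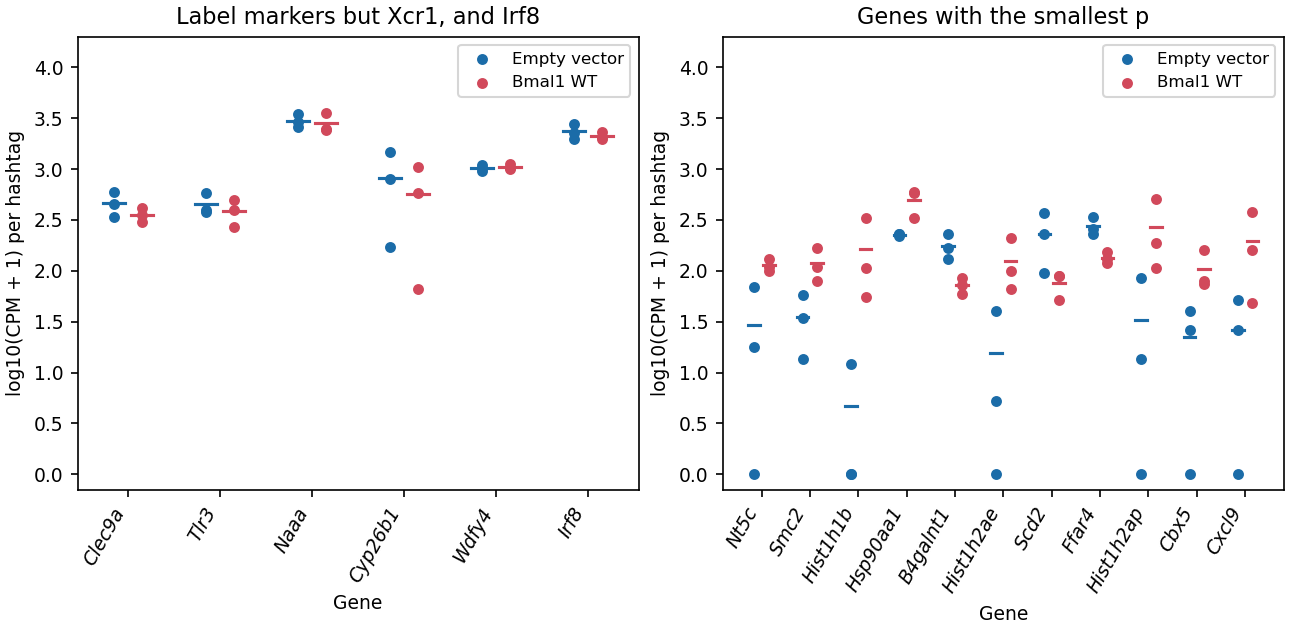
Each point is the level of a gene in the unmarked Xcr1 cells of 1 hashtag, as log10 of CPM + 1 (y axis), for 5 label markers, Xcr1 left out, and Irf8 (left) and for Nt5c with the 10 genes of smallest p without the marked cells (right), and lines give the log of the group mean. The groups overlap for the left genes, and on the right they are apart for all but Cxcl9, none of them at an adjusted p under 0.05.

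The 5 markers of the label other than Xcr1, which the rule used and which was not tested, did not pass the test. In unmarked cells, Clec9a was 593, 340 and 454 CPM against 417, 354 and 299 CPM (log2 fold change -0.47 ± 0.25, SE). Tlr3 had a change of -0.26 ± 0.29, Naaa of -0.10 ± 0.20, Cyp26b1 of -0.72 ± 0.70, Wdfy4 of 0.05 ± 0.19 and Irf8 of -0.15 ± 0.19. The 17 tested genes of the cDC1 list had a median of -0.15, with 0 called, and with the marked cells 18 genes had a median of 0.20.

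For antigen presentation, 11 MHC class II genes had a median of -0.21 and 12 class I genes one of -0.13 in unmarked cells, with 0 called in either. Over all members the medians were 0.19 and -0.08. In 4 of those 12 class I genes the hashtags did not overlap, beside 11.8% of all genes, and in 2 of 12 with the marked cells. H2-K1, a classical class I heavy chain, was 1976, 1644 and 2075 CPM against 1348, 1566 and 988 CPM (-0.58 ± 0.21), and -0.31 ± 0.23 with the marked cells, where the groups overlapped. Arntl itself had 0, 0 and 1 UMIs in unmarked cells of h1, h7 and h8 and 2, 2 and 3 in those of h3, h5 and h9, too few to be tested. Over all members it had 1, 0 and 10 UMIs against 2, 2 and 3.

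Last, the difference between the groups in Xcr1 cells was set against that in Cd3 cells of the same hashtags by an interaction term in edgeR. Of 9058 genes, 0 passed an adjusted p of 0.05 (0%), and 388 had an unadjusted p under 0.05. Only 2857 genes had enough UMIs to be tested in Xcr1 cells alone, against 8613 in Cd3 cells alone. Most of the 9058 genes thus entered through the UMIs of Cd3 cells, and their comparison rests on few UMIs in Xcr1 cells. The count of 0 therefore does not show that the groups differed alike in both classes. A difference in RNA content and a change in a gene's share of a cell's RNA cannot be told apart on the CPM scale.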

How the data were processed

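Cells of the Empty vector and Bmal1 WT libraries were captured with 10x Genomics 3' chemistry, and hashtag antibodies marked the replicates. The authors deposited raw UMI counts per gene and barcode from Cell Ranger 6.1.2 (file header), not normalized. The submitters' processing notes name the build mm10. For Bmal1 bHLH, 3 of 3 matrix parts repeated the Bmal1 WT files exactly, and that group was not analysed here.

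Barcodes with at least 200 genes and at most 20% mitochondrial UMIs were kept. The members, the 25 gene lists (292 genes, 2 of them absent from the table) and the tests were chosen with earlier results of these data known, and the higher share of this population in Bmal1 WT was among those results. Cells were assigned to hashtags by a 2-component Gaussian mixture per hashtag (scikit-learn 1.9.0). Doublets were kept, except that cells with several hashtags entered no replicate.

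UMIs of Xcr1 cells were summed per hashtag, and every gene reaching 100 UMIs across the 6 hashtags was tested with edgeR 4.0.16 (R 4.3.3), quasi-likelihood test, scaled by total UMIs, with Benjamini-Hochberg adjustment at 0.05. The step was tested on simulated data. For the interaction, UMIs of Xcr1 and Cd3 cells counted together toward the 100 UMIs. DESeq2 1.42.0 was an alternative, and others were TMM scaling, other hashtag calls, a stricter cell filter, at least 2 Xcr1 UMIs, no filter on low counts and leaving out each hashtag. Leaving out the 10 marked cells was added after the data were seen. Shares were compared by exact permutation tests (scipy 1.17.1). Named genes were list members, the 20 highest and 10 lowest ratios to the other dendritic classes, and the 10 smallest p, and the same rule was applied again without the marked cells. Mki67, Cpe, H2-K1 and the genes singled out by hashtag were picked after their values were seen.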

Additional observations from a re-analysis of the deposited data

How the results depend on the processing

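No paired analysis was made, because the labels give no link between replicates of different groups. Both shares of Xcr1 cells kept their direction in every alternative run (14 and 13), and hashtags did not overlap where the alternative had hashtags. The difference among Ptprc cells, 3.82 percentage points, was 2.26 without Bmal1 WT h9 and 2.55 after thinning, and ran from 2.26 to 4.62 when 1 hashtag was left out. That among the 4 dendritic classes, 24.5 points, ran from 17.3 (without h9) to 28.5. The count of genes called between the groups was 0. It was 337 with no filter on low counts (12 higher and 325 lower in Bmal1 WT) and 1 in DESeq2 without the marked cells. With 1 hashtag left out it was 0 to 75, the 75 (2 higher and 73 lower) without Empty vector h1. Without the marked cells it stayed 0 whichever hashtag was left out. The count for the interaction with Cd3 cells, 0, was 2 with hashtags called by the centred log count (Spp1 and Prc1), 2 without the marked cells (Cxcl2 and Bcl2l14), and 0 to 472 when 1 hashtag was left out (472 without Empty vector h1, 16 without h8, 3 without Bmal1 WT h5). The difference in median depth, -2322 UMIs, turned to 2530 under the centred log count, 7173 with at least 2 Xcr1 UMIs, 2174 without the marked cells and 442 with the stricter cell filter, and ran from -7400 to 438 when 1 hashtag was left out (184 without Empty vector h8). The cause was not tested.

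Over all members, the 10 genes of smallest p, 5 label markers and Irf8 were run under each alternative, and the log2 fold change turned for Clec9a to 0.46 and Tlr3 to 0.42 under the centred log count, and Clec9a to 0.42, Tlr3 to 0.66 and Cyp26b1 to 0.63 without Empty vector h1. Naaa turned to -0.089 with at least 2 Xcr1 UMIs, -0.10 without the marked cells, -0.17 without these and h7, -0.075 in DESeq2 without the marked cells, -0.15 without h8 and -0.06 without h3. Irf8 turned to -0.13, -0.15, -0.17, -0.13, -0.30 and -0.03 in the same alternatives, and Wdfy4 to -0.0067 without h8. In 174 of the other comparisons of a named gene with an alternative the direction and the side of the threshold stayed, and in 19, all with no filter on low counts or without Empty vector h1, the change passed the threshold. In unmarked cells, the 10 genes of smallest p there, Nt5c, Mki67 and H2-K1 kept direction and side of the threshold in 104 comparisons with TMM, DESeq2, the marked cells or 1 hashtag left out. Smc2 turned to -0.57 with the marked cells, and Hist1h1b passed the threshold in DESeq2 (4.82). Over all members, marked cells included, leaving out 1 hashtag at a time gave -0.53 to 0.42 for Clec9a, -0.77 to 0.66 for Tlr3 and -0.15 to 0.50 for Naaa. The same fits gave -1.42 to 0.63 for Cyp26b1, -0.0067 to 0.67 for Wdfy4 and -0.30 to 0.47 for Irf8. Depth limits Empty vector h7 most, with 2 Xcr1 cells.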
